A study of Mus musculus with 4 samples.

Results

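Toll-like receptors and inflammasome genes form the pathway by which myeloid cells sense microbial products and tissue damage. The list holds 36 genes, named by symbol: Toll-like receptors, the proteins that pass lipopolysaccharide to them, their adaptors and kinases, and the sensors and effectors of inflammasomes. Of these, 31 were measured on the array by a probe set with a single gene symbol, among 19938 genes in all, and each of the 31 had 1 such probe set. Tlr5, Tlr11, Irak4, Traf3 and Ripk2 were not analysed here.

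The arrays hold total RNA from leukemic whole bone marrow of C57BL/6 mice, in which the leukemia carries the fusion oncogene MLL-AF9. There were 2 arrays of MLL-AF9/Hes1+/+ marrow, labelled wild type, and 2 arrays of MLL-AF9/Hes1-/- marrow, labelled Hes1 null. All 4 samples therefore share the oncogene and differ in Hes1, which encodes a transcriptional repressor induced by Notch. The series asks whether Hes1 carries the suppression of this leukemia by Notch signalling. The labels give no age, sex, way of deleting Hes1 or number of mice per sample, so the p-values measure only the spread between these samples, which may be technical.

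Toll-like receptors at the cell surface bind lipids and proteins of bacteria, and those of endosomes bind nucleic acids. Most signal through Myd88 to the IRAK kinases and the ubiquitin ligase Traf6, which activate NF-kB, and a minority use Ticam1. NOD-like receptors and Aim2 act in the cytosol, where inflammasomes activate an inflammatory caspase that matures interleukin-1 and cleaves gasdermin D, the pore former of pyroptosis. In marrow these genes are known mainly from monocytes, macrophages, neutrophils and dendritic cells, and progenitor cells carry some of them too.

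Levels are log2 of the deposited intensity. Differences are taken as Hes1-null minus wild type. Each carries its standard error (SE, from 2 arrays of each genotype, n = 2) from limma, a linear model with a moderated spread, and p-values were adjusted over all genes by the Benjamini-Hochberg method. A level depends on the probe set, so levels are compared between arrays and not between genes. Whole marrow mixes cell types, so fewer cells of a type and less RNA per cell cannot be told apart.

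By limma, 0 of the 31 genes had an adjusted p under 0.05, against 0.145% of all genes. At an unadjusted p of 0.05, 1 gene was higher in Hes1-null marrow (Lbp) and 2 were lower (Irak3 and Tlr4), against 3.51% of all genes higher and 4.78% lower. Both Hes1-null arrays lay above both wild-type arrays for 5 of the 31 genes and below them for 8, against 17.4% and 20.6% of all genes. The median difference was -0.03 over the 31 genes and -0.02 over all genes. The pathway as a list therefore stood close to the background of the array on each of these counts. Without Hes1-null replicate 1 the number past the adjusted threshold was 4 (Tlr2, Ticam2, Traf6 and Gsdmd). That fit called 999 of all genes and assumes that the lone Hes1-null array varies like the wild-type arrays.

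The width of the interval around a difference varied between genes. These intervals are not adjusted for the number of genes, and the fit assumes the same spread in both genotypes. Over all genes the median absolute gap between replicates was 0.112 in wild type and 0.247 in Hes1-null marrow. For 23 of the 31 genes the 95% interval of the difference lay inside a 2-fold change in either direction. For the other 8 it reached past 2-fold: Tlr2, Tlr8, Cd14, Ticam2, Irak3, Traf6, Nlrp3 and Gsdmd. The half-width of the interval ran from 0.30 to 1.22 on the log2 scale. An exact permutation test of 2 arrays against 2 cannot give a two-sided p below 0.333, so none was run.

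**Figure D1:**
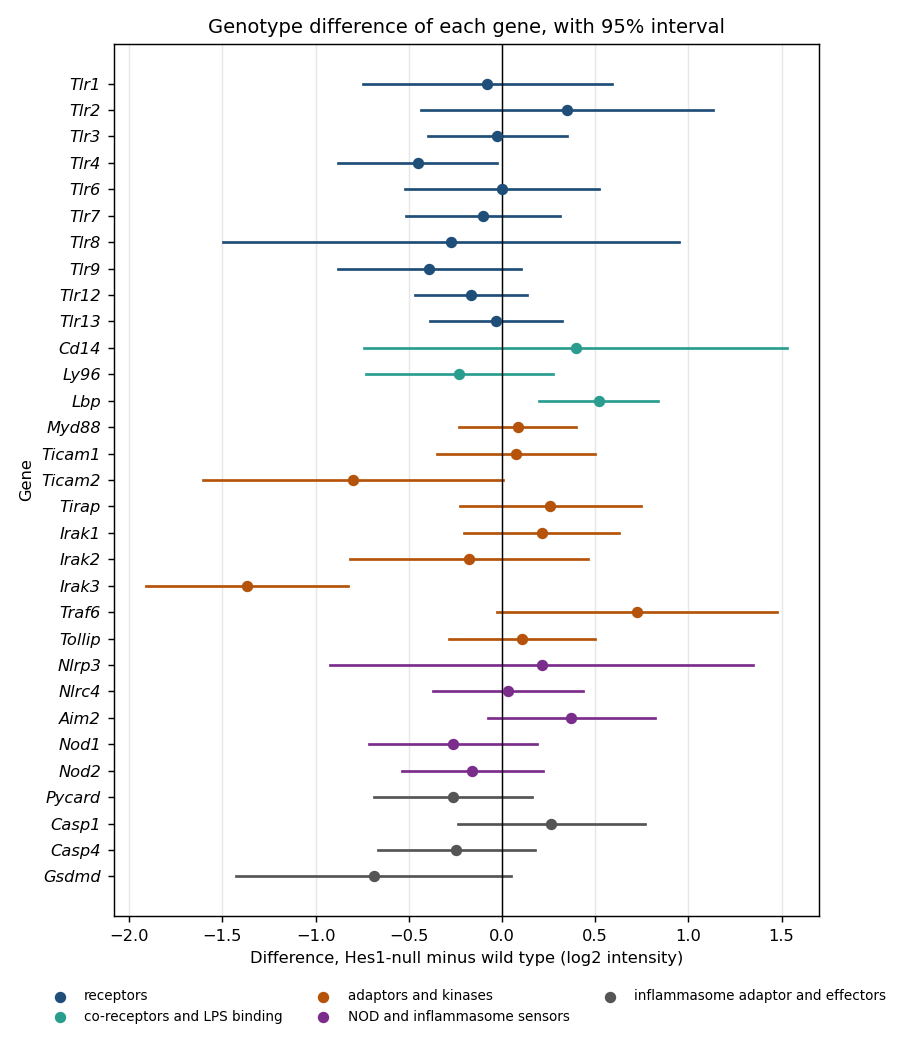
Difference in level (Hes1-null minus wild type, log2 intensity, x axis) for each of the 31 genes (y axis), coloured by role, with the 95% interval from limma as a line. The intervals of Irak3, Tlr4 and Lbp exclude 0 before adjustment, and none of the 31 genes passed an adjusted p of 0.05.

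Start regions are shown for Irak3, which had the largest difference of the 31 genes, and for Traf6, which had the largest positive one. The sequences come from RefSeq on GRCm38.p6, which held windows for 24 of the 31 genes, and the 250 bases before each annotated start are printed. Irak3 has 2 annotated starts on the minus strand of chromosome 10, and the first 30 bases from the start on are added for one of them because a motif lies there. Capitals mark motif matches on either strand: the class C site CACGNG and the N box CACNAG, both of which Hes family proteins are known to bind, the core GAGGAA of PU.1 sites, the AP-1 site TGANTCA and the NF-kB consensus.
Irak3, chr10:120201598-120201847, minus strand: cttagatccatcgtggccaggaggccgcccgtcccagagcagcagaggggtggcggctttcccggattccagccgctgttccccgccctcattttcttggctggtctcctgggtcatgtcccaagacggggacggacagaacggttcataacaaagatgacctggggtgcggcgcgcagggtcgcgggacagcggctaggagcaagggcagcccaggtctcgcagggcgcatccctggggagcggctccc
Irak3, chr10:120201568-120201597, minus strand, from the start on: tacgtCACGTGgggcccgccctgcgacggc
Irak3, chr10:120202131-120202380, minus strand: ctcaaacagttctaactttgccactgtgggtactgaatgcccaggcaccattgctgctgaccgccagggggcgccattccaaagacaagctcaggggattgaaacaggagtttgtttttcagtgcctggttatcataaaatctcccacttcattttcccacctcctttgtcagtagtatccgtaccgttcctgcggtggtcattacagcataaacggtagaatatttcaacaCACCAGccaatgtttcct
Traf6, chr2:101678170-101678419, plus strand: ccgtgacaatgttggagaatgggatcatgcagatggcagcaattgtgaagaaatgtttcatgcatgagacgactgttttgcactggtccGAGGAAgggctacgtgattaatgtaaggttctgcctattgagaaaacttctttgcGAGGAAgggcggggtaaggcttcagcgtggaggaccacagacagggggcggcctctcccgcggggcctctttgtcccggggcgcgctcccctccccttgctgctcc

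One Irak3 start has a match to the class C pattern CACGNG, the palindrome CACGTG, that begins at base 6, with the start as base 1. CACGTG is also an E box, and the pattern allows any base at N, so a match need not be a class C site. The other has an N box that begins 18 bases before it, and a PU.1 core beyond the printed bases, at base 34. In the Traf6 window the 2 PU.1 cores begin 161 and 106 bases before the start. Such short motifs are common: of 32851 windows of 300 bases in the table, 27.5% held a CACGNG match, 42.5% an N box and 28.3% a PU.1 core. The 24 genes have 32 windows, of which 12 held a CACGNG match, 17 an N box and 11 a PU.1 core. The AP-1 site lay in 1 of the 32 (Tlr9; 7.81% of all windows) and the NF-kB consensus in 5 of them (Casp4, Nlrp3, Tlr2 and Tlr3; 4.51% of all windows). Windows of 1 gene can overlap, and a match describes these letters only.

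All 10 measured Toll-like receptors had an absolute difference under 0.5, as did 91.5% of all genes, and their median difference was -0.09. The intervals of Tlr2 and Tlr8 reached past 2-fold. None of the receptors was higher on both Hes1-null arrays (17.4% of all genes), and 3 were lower on both (Tlr4, Tlr9 and Tlr12; 20.6% of all genes).

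Among the receptors of the cell surface, Tlr4, which senses lipopolysaccharide, lay at 5.99 and 6.14 in wild type and at 5.44 and 5.79 in Hes1-null marrow. Both Hes1-null arrays were below both wild-type arrays. The difference was -0.45 ± 0.17, a 1.37-fold lower level (unadjusted p = 0.0414, adjusted p = 0.578 by limma).

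Tlr2, which senses bacterial lipoproteins together with Tlr1 or Tlr6, lay at 7.99 and 7.95 in wild type and at 7.88 and 8.76 in Hes1-null marrow. The wild-type arrays were nearly equal, and only Hes1-null replicate 2 stood above them. The difference of 0.35 ± 0.31 (adjusted p = 0.849 by limma) did not exceed that spread, and it was -0.09 without Hes1-null replicate 2. Its partner Tlr1 lay at 8.99 and 8.96 in wild type and at 9.26 and 8.54 in Hes1-null marrow, with Hes1-null replicate 1 highest and replicate 2 lowest. Tlr6 lay at 7.97 and 7.76 against 8.06 and 7.67, with equal genotype means of 7.86. Tlr1 and Tlr6 are close paralogs, so their probe sets may share signal.

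The endosomal receptors included the sensors of nucleic acids. Tlr9, the receptor for unmethylated CpG DNA, lay at 9.15 and 8.91 in wild type and at 8.79 and 8.48 in Hes1-null marrow, lower on both (difference -0.39 ± 0.20, adjusted p = 0.692 by limma). Tlr13, the receptor for bacterial ribosomal RNA, lay at 10.80 and 10.89 against 10.69 and 10.94. Its arrays overlapped, and the 95% interval of its difference, -0.39 to 0.32, lay well inside 2-fold.

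Tlr7, a receptor for single-stranded RNA, lay at 6.53 and 6.56 in wild type and at 6.29 and 6.60 in Hes1-null marrow. Tlr8, its neighbour in the receptor family, lay at 7.58 and 7.22 in wild type and at 6.39 and 7.87 in Hes1-null marrow. Hes1-null replicate 1 was the lowest of the Tlr8 arrays and replicate 2 the highest, and the interval of its difference ran from -1.50 to 0.95. Tlr12, which binds profilin of protozoa, lay at 5.25 and 5.28 against 5.09 and 5.12, lower on both Hes1-null arrays by only 0.17 ± 0.12. Tlr3, the receptor for double-stranded RNA, stood between 3.61 and 3.87 on all 4 arrays, at the 8.28th percentile of gene levels. The deposited values carry no detection calls, so a Tlr3 level this low is not shown to lie above background.

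**Figure D2:**
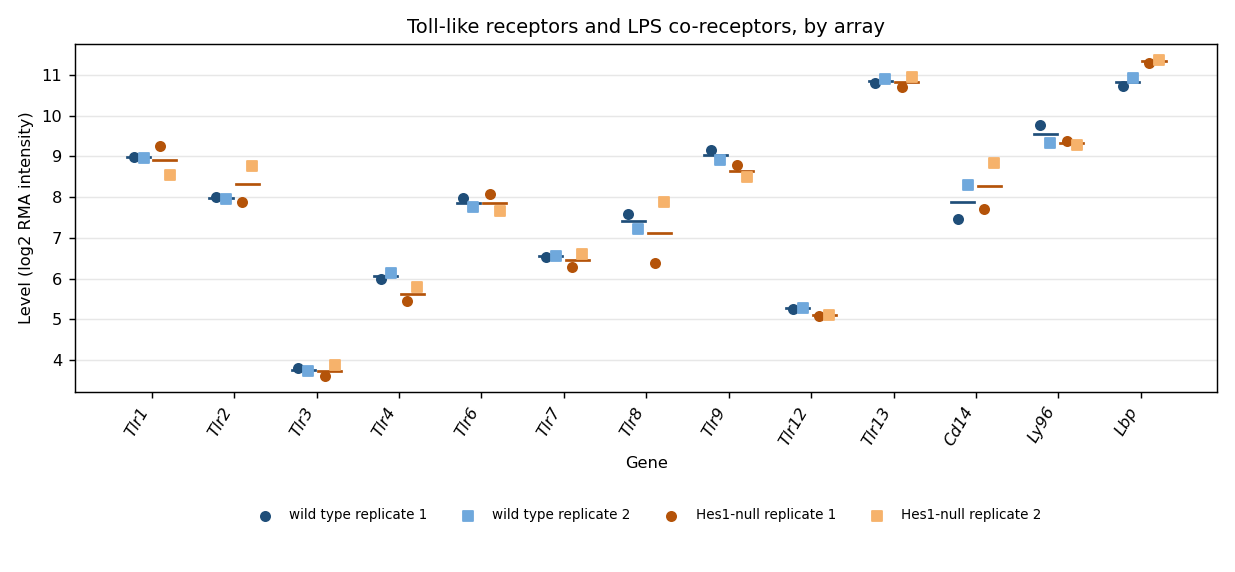
Level (log2 RMA intensity, y axis) of the 10 measured Toll-like receptors and the 3 co-receptor and lipopolysaccharide-binding genes (x axis) on each of the 4 arrays, as points, with a line at each genotype mean. Lbp was higher and Tlr4, Tlr9 and Tlr12 were lower on both Hes1-null arrays, and Tlr8 and Cd14 were spread over more than 1 log2 unit within Hes1-null marrow.

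The genes that hand lipopolysaccharide to Tlr4 did not move together. Lbp, which encodes the lipopolysaccharide-binding protein, lay at 10.71 and 10.91 in wild type and at 11.29 and 11.37 in Hes1-null marrow. Both Hes1-null arrays were above both wild-type arrays, and the gap between genotypes was larger than the gap within either. The difference was 0.52 ± 0.13, a 1.43-fold higher level (95% interval 0.20 to 0.84, unadjusted p = 0.00801, adjusted p = 0.326 by limma), so Lbp missed the adjusted threshold. Leaving out single arrays gave 0.42 to 0.62.

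Cd14, the membrane co-receptor, lay at 7.46 and 8.29 in wild type and at 7.71 and 8.83 in Hes1-null marrow. In each genotype replicate 2 was the higher array, by 0.82 in wild type and 1.12 in Hes1-null marrow, so the genotypes overlapped widely. Ly96, whose product sits on Tlr4 and binds the lipid, lay at 9.76 and 9.33 against 9.37 and 9.27. Its difference of -0.23 ± 0.20 was within the gap between the wild-type arrays.

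The adaptors and kinases held both the largest negative and the largest positive difference. Of the 9 measured, 3 were higher on both Hes1-null arrays (Myd88, Irak1 and Traf6) and 2 were lower on both (Ticam2 and Irak3), against 17.4% and 20.6% of all genes. The median difference was 0.08.

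Irak3 encodes IRAK-M, a kinase-like protein of myeloid cells that restrains signalling from Toll-like receptors. Irak3 lay at 9.51 and 9.90 in wild type and at 8.18 and 8.49 in Hes1-null marrow. The lower wild-type array was still more than 1 log2 unit above the higher Hes1-null array, while the gaps within the genotypes were 0.39 and 0.31. The difference was -1.37 ± 0.22, a 2.58-fold lower level (95% interval -1.91 to -0.83, unadjusted p = 0.00108, adjusted p = 0.142 by limma). Irak3 missed the adjusted threshold. With 1 array left out the difference of Irak3 ran from -1.56 to -1.17, and its adjusted p from 0.0588 (without Hes1-null replicate 1) to 1.

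Markers of monocytes and neutrophils were read beside Irak3, against the 20.6% of all genes that were lower and 17.4% that were higher on both Hes1-null arrays. Of the monocyte and macrophage markers, 15 of 17 were measured, and 12 were lower and 1 higher on both. Their summed intensity (linear scale) ran from 18560 to 20587 in wild type and from 11594 to 13191 in Hes1-null marrow. All 17 neutrophil markers were measured, of which 12 were lower and 2 higher on both Hes1-null arrays. Their summed intensity ran from 40253 to 47847 in wild type and from 24946 to 24977 in Hes1-null marrow. These sums share the direction between genotypes with Irak3, Tlr4 and the other members that were lower on both Hes1-null arrays. Their order between the replicates of a genotype did not always match. The part of these markers in those differences was not tested. The brightest monocyte markers in wild type were Lyz2 (difference -0.51 ± 0.23) and Irf8 (-0.84 ± 0.12), and the brightest neutrophil markers Elane (-1.61 ± 0.18) and Mpo (-1.83 ± 0.50). Vcam1 (-2.62 ± 0.17, adjusted p = 0.0242 by limma) and, among neutrophil genes, Ltf (-2.77 ± 0.23, adjusted p = 0.0398 by limma) were called over all genes.

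Irak1, which carries the signal from Myd88, lay at 9.26 and 9.38 in wild type and at 9.42 and 9.64 in Hes1-null marrow (difference 0.21 ± 0.17). Both Hes1-null arrays of Irak1 were higher, though by less than the fitted error could separate. Irak2, a related kinase of sustained signalling, lay at 8.33 and 8.50 against 7.92 and 8.55, with Hes1-null replicate 1 apart from the other arrays.

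Traf6, the ubiquitin ligase on which IRAK signalling converges, lay at 9.17 and 9.28 in wild type and at 9.52 and 10.38 in Hes1-null marrow. Both Hes1-null arrays were higher, and replicate 2 stood 0.85 above replicate 1. The difference was 0.72 ± 0.30, a 1.65-fold higher level (unadjusted p = 0.0561, adjusted p = 0.612 by limma). It was 1.15 without Hes1-null replicate 1 (adjusted p = 0.0383 by limma) and 0.30 without Hes1-null replicate 2, so its size rested on replicate 2.

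Myd88, the adaptor of most Toll-like receptors and of the interleukin-1 receptor, lay at 10.56 and 10.50 in wild type and at 10.65 and 10.59 in Hes1-null marrow. The genotypes did not overlap, but the difference was only 0.08 ± 0.12, with a 95% interval from -0.23 to 0.40. Tirap, which brings Myd88 to the membrane, lay at 8.80 and 9.07 against 9.06 and 9.34, overlapping narrowly. Tollip, an inhibitory adaptor, lay at 9.35 and 9.42 against 9.41 and 9.57.

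In the other adaptor branch, Ticam1, encoding TRIF, lay at 8.67 and 8.77 in wild type and at 8.89 and 8.70 in Hes1-null marrow, with overlapping arrays. Ticam2, encoding TRAM, which links Tlr4 to TRIF, lay at 8.22 and 8.02 against 7.77 and 6.87. Both Hes1-null arrays of Ticam2 were lower, with replicate 2 the lowest. The difference was -0.80 ± 0.32, a 1.74-fold lower level (unadjusted p = 0.0507, adjusted p = 0.607 by limma). It was -1.25 without Hes1-null replicate 1 (adjusted p = 0.0426 by limma) and -0.35 without Hes1-null replicate 2.

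**Figure D3:**
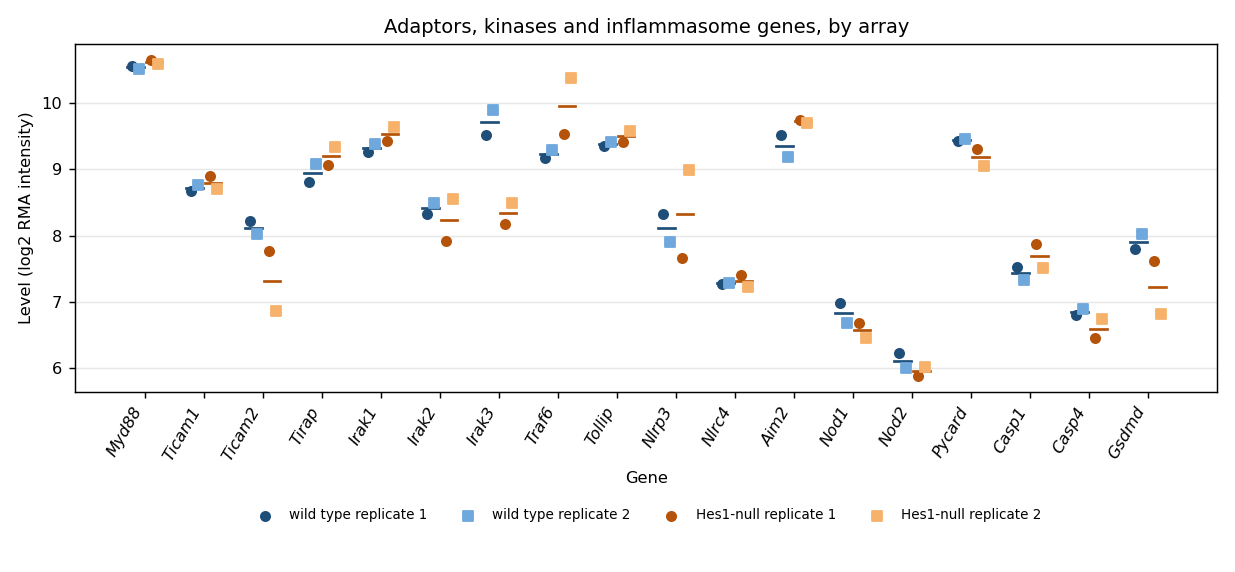
Level (log2 RMA intensity, y axis) of the 9 adaptors and kinases, 5 NOD and inflammasome sensors and 4 inflammasome adaptor and effector genes (x axis) on each of the 4 arrays, as points, with a line at each genotype mean. Irak3 lay at 9.51 and 9.90 in wild type and at 8.18 and 8.49 in Hes1-null marrow, and the Hes1-null arrays of Nlrp3, Ticam2, Traf6 and Gsdmd lay far apart.

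The 5 cytosolic sensors all had an absolute difference under 0.5, as did 91.5% of all genes, and their median difference was 0.03. The interval of Nlrp3 reached past 2-fold. Aim2, the sensor of cytosolic DNA, lay at 9.52 and 9.17 in wild type and at 9.74 and 9.70 in Hes1-null marrow. Both Hes1-null arrays were higher, by 0.37 ± 0.18 on average (adjusted p = 0.677 by limma), about as much as the gap of 0.34 between the wild-type arrays. Nlrp3, the sensor that responds to loss of potassium, lay at 8.32 and 7.90 in wild type and at 7.66 and 8.99 in Hes1-null marrow. Hes1-null replicate 1 was the lowest Nlrp3 array and replicate 2 the highest, and its difference changed from -0.45 to 0.88 with the Hes1-null array that was left out.

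Nlrc4, the sensor that joins NAIP proteins bound to flagellin, lay at 7.27 and 7.29 in wild type and at 7.40 and 7.22 in Hes1-null marrow. Its difference was 0.03 ± 0.16. Nod1 and Nod2, which bind fragments of peptidoglycan, differed by -0.26 ± 0.18 and -0.16 ± 0.15. Nod1 lay at 6.98 and 6.69 against 6.69 and 6.46, and Nod2 at 6.23 and 6.00 against 5.89 and 6.02, so both overlapped between genotypes.

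Of the 4 measured inflammasome adaptor and effector genes, 3 were lower on both Hes1-null arrays (Pycard, Casp4 and Gsdmd), against 20.6% of all genes, and the median difference was -0.25. Gsdmd, the gene of gasdermin D, lay at 7.80 and 8.02 in wild type and at 7.61 and 6.82 in Hes1-null marrow. Both Hes1-null arrays were lower, replicate 1 narrowly and replicate 2 clearly. The difference was -0.69 ± 0.29, a 1.61-fold lower level (unadjusted p = 0.0617, adjusted p = 0.619 by limma). It was -1.08 without Hes1-null replicate 1 (adjusted p = 0.048 by limma) and -0.29 without Hes1-null replicate 2.

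Pycard, the adaptor ASC that joins sensors to the caspase, lay at 9.42 and 9.45 against 9.30 and 9.05 (difference -0.26 ± 0.17). Casp4, the sensor caspase of cytosolic lipopolysaccharide, lay at 6.80 and 6.89 against 6.45 and 6.75 (-0.24 ± 0.17). Both were lower on both Hes1-null arrays, by amounts near the fitted error. Casp1, the caspase of the canonical inflammasome, went the other way on average, at 7.53 and 7.33 against 7.88 and 7.51 (0.26 ± 0.20), with overlapping arrays.

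The Hes1-null arrays differed from each other more than the wild-type arrays did. The gap between replicates was larger in Hes1-null marrow for 24 of the 31 genes (77.4%), against 72.1% of all genes. It exceeded 0.5 in Hes1-null marrow for 9 of the 31 genes (29.0%; 19.6% of all genes) and in wild type for 1, Cd14 (3.23%; 3.06% of all genes). Of the 9 genes, 6 were higher on Hes1-null replicate 2 (Tlr8, Nlrp3, Cd14, Tlr2, Traf6 and Irak2) and 3 were lower on it (Ticam2, Gsdmd and Tlr1). The gap was 1.48 for Tlr8 and 1.33 for Nlrp3. The gap was in the opposite direction in wild type for both Tlr8 (-0.37) and Nlrp3 (-0.42).

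**Figure D4:**
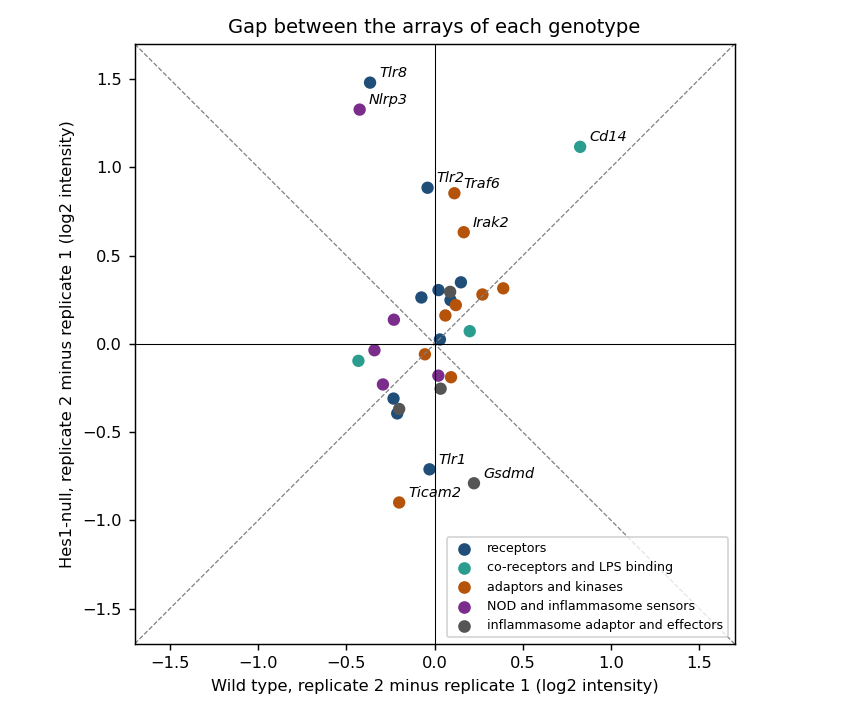
Gap between replicates (replicate 2 minus replicate 1, log2 intensity) in wild type (x axis) and Hes1-null marrow (y axis) for the 31 genes, coloured by role, with genes named where either gap exceeds 0.5. Points above or below both dashed diagonals, 24 of the 31, have the larger gap in Hes1-null marrow, led by Tlr8 (1.48) and Nlrp3 (1.33).

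The remaining genes of the pathway were read from 6 lists of 111 genes, of which 105 were measured. Only the chemokine gene Ccl3 passed the adjusted threshold (0.145% of all genes). At an unadjusted p of 0.05 there were 12 higher and 8 lower of the 105, against 3.51% and 4.78% of all genes. The median difference was 0.01. The counts of genes higher or lower on both Hes1-null arrays in these lists stand against 17.4% and 20.6% of all genes. For each list, the up to 4 genes with the smallest unadjusted p are named.

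Of 16 accessory and trafficking genes, 12 had a negative difference (53.6% of all genes). On both Hes1-null arrays 5 were lower and 0 higher, and the other 11 overlapped. The genes with the smallest p were the scavenger receptor gene Cd36 (-0.80 ± 0.15), the chaperone gene Hsp90b1 (-0.52 ± 0.15), which folds Toll-like receptors, and the Tlr4-like gene Cd180 (-0.69 ± 0.24). Lgmn, a protease gene of endosomes, differed by -0.99 ± 0.47. None of these passed the adjusted threshold, the lowest adjusted p being 0.187 for Cd36 by limma. Cd36 lay at 4.51 and 4.34 against 3.52 and 3.73, dim on every array.

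Among 19 downstream kinases, NF-kB and IRF genes, 7 were higher and 2 lower on both Hes1-null arrays, with a median of 0.11. The adaptor gene Pik3ap1 differed by 0.61 ± 0.17, the NF-kB subunit gene Rela by 0.38 ± 0.14, the kinase gene Btk by -0.53 ± 0.19 and Map3k8 by -0.48 ± 0.21. Of 19 negative regulators, 5 were higher and 2 lower on both. Atf3, a stress-induced repressor of inflammatory genes, lay at 6.73 and 6.55 in wild type and at 8.54 and 10.08 in Hes1-null marrow (2.67 ± 0.50, adjusted p = 0.202 by limma). Its Hes1-null arrays were both far above wild type but 1.53 apart. The phosphatase gene Inpp5d (0.53 ± 0.18), Rnf216 (0.40 ± 0.20) and Peli2 (-0.31 ± 0.16) showed smaller differences.

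Among 16 other sensors and adaptors, mostly cytosolic, 3 were higher and 4 lower on both Hes1-null arrays. Sting1, the adaptor of cytosolic DNA sensing, lay at 10.26 and 9.63 in wild type and at 11.18 and 10.82 in Hes1-null marrow. Both Hes1-null arrays were higher, by 1.05 ± 0.25 on average (unadjusted p = 0.00714, adjusted p = 0.309 by limma). Mavs, the adaptor of cytosolic RNA sensing, was also higher on both (0.50 ± 0.19). Clec7a, the fungal glucan receptor Dectin of the cell surface, lay at 9.35 and 9.19 against 8.14 and 8.33 (-1.03 ± 0.17, adjusted p = 0.166 by limma). Nlrp1a differed by -1.25 ± 0.52. The Naip and Nlrp1 genes in this list have near-identical copies, so their values are uncertain.

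Of 19 pyroptosis partners and cytokines, 5 were higher and 8 lower on both Hes1-null arrays. Il1rn, the gene of the interleukin-1 receptor antagonist, differed by -0.87 ± 0.25, the gasdermin gene Gsdme by -0.46 ± 0.13 and Nek7, the kinase that licenses Nlrp3, by -0.43 ± 0.15. Ninj1, whose product ruptures the membrane in pyroptosis, differed by 0.56 ± 0.18. Il1b, the main cytokine gene of the inflammasome, and the cytokine gene Il18 were named after their values were seen. Il18 went the other way, at 4.23 and 4.04 against 3.49 and 3.88 (-0.445 ± 0.179), lower on both Hes1-null arrays and dim on every array. Il1b lay at 5.60 and 5.49 in wild type and at 5.72 and 7.74 in Hes1-null marrow. Only Hes1-null replicate 2 stood clearly apart for Il1b, as it did for Nlrp3 and Tlr2.

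The largest difference in the 6 lists, that of Cxcl2, stood among the 16 output genes. Ccl3, a chemokine gene that NF-kB induces, lay at 11.60 and 11.69 in wild type and at 12.88 and 13.13 in Hes1-null marrow and rose 2.56-fold (1.35 ± 0.11, adjusted p = 0.0387 by limma). Cxcl2, Ccl4 and the prostaglandin synthase gene Ptgs2 differed by 4.76 ± 0.73, 2.66 ± 0.48 and 1.45 ± 0.30, with adjusted p from 0.139 to 0.232 by limma. Cxcl2 lay at 4.89 and 5.70 against 8.96 and 11.15, so its Hes1-null arrays were far above wild type and far apart. In all, 6 of the 16 were higher on both Hes1-null arrays and 2 lower, against 17.4% and 20.6% of all genes. On Hes1-null replicate 2, 15 of the 16 were higher than on replicate 1, as were 56.2% of all genes.

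**Figure D5:**
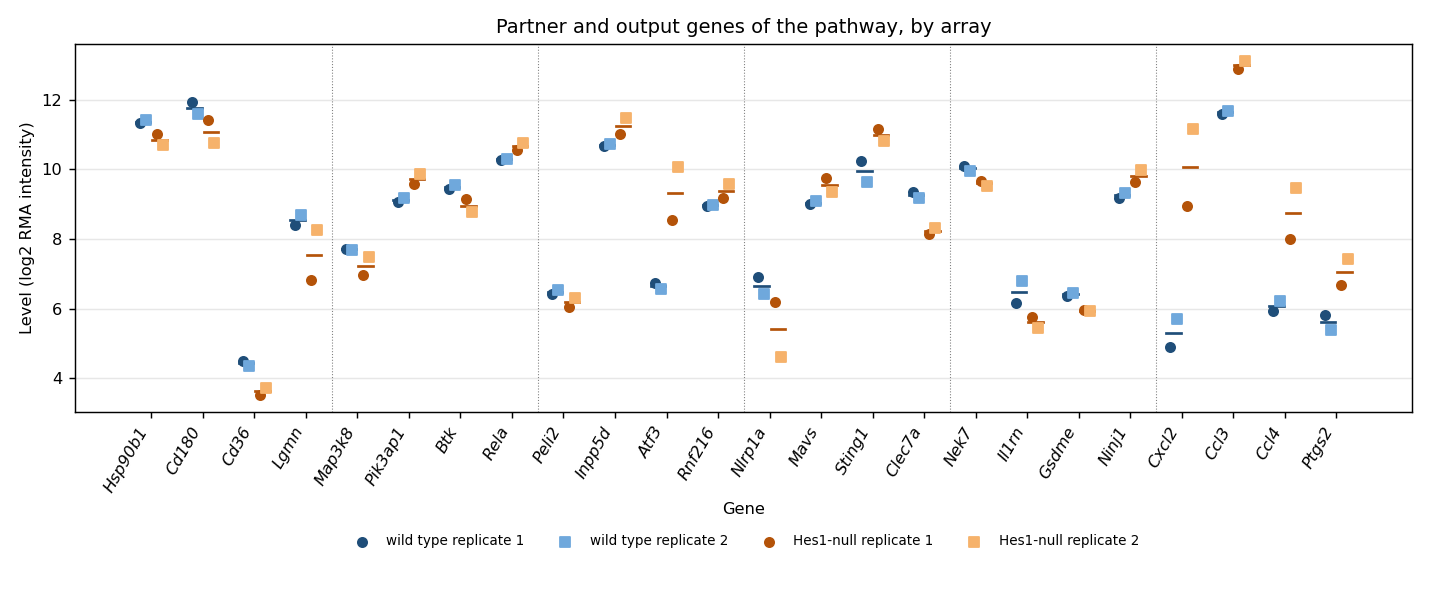
Level (log2 RMA intensity, y axis) of the 4 genes with the smallest unadjusted p in each of the 6 lists of partner and output genes (x axis, lists divided by dotted lines) on each of the 4 arrays, as points, with a line at each genotype mean. Cxcl2, Ccl3, Ccl4, Ptgs2, Atf3, Inpp5d, Rnf216, Sting1, Mavs, Ninj1, Pik3ap1 and Rela were higher on both Hes1-null arrays. All other genes shown were lower on both. Genes chosen by smallest p are likely to separate the genotypes, so this separation follows in part from the choice.

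Genes of the immediate early and heat shock classes, which respond to cell stress and sample handling, were read beside these outputs. Of 13 measured, 12 were higher on both Hes1-null arrays (17.4% of all genes), with a median difference of 1.42, and their summed intensity ran from 11142 to 11376 in wild type and from 19212 to 25606 in Hes1-null marrow. Jun (2.70 ± 0.16, adjusted p = 0.0231 by limma) was called, and Dusp1, Zfp36 and Jund differed by 2.15 ± 0.24, 1.34 ± 0.18 and 1.42 ± 0.23. The heat shock genes Hspa1a, Hspa8 and Dnajb1, named after their values were seen, differed by -0.05 ± 0.14, 0.08 ± 0.07 and 0.32 ± 0.17. Atf3 stands in this list and among the negative regulators. The part of these genes in the differences of Traf6, Atf3 and the chemokine genes was not tested.

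Other cell types were checked by their markers. Dendritic cell markers were mixed, with 5 of 14 higher and 4 lower on both Hes1-null arrays (17.4% and 20.6% of all genes). Their summed intensity ran from 1871 to 2510 in wild type and from 5779 to 6334 in Hes1-null marrow, led by Flt3 (1.94 ± 0.30) and Tcf4 (1.82 ± 0.18), which progenitors and other cells also express. Their part in the differences of Tlr7, Tlr9 and Tlr13 was not tested. Of 11 myeloid progenitor markers, 3 were higher and 1 lower on both Hes1-null arrays (17.4% and 20.6% of all genes). These markers summed to between 17302 and 18146 in wild type and between 19120 and 19811 in Hes1-null marrow. The brightest progenitor markers, Cd33 and Cd34, differed by 0.33 ± 0.12 and 0.03 ± 0.19. Kit and the leukocyte gene Ptprc, also in this list, are named outside the rule for markers. Kit was the marker lower on both, at 9.02 and 8.87 in wild type and 8.29 and 6.39 in Hes1-null marrow (-1.60 ± 0.60). Ptprc lay between 10.38 and 10.50 on all arrays.

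A sum on the linear scale is weighted to the brightest genes of its list. In the remaining marker lists the summed intensity of B cell genes was 1251 and 1228 in wild type against 1730 and 1005 in Hes1-null marrow, with Cd79b (0.13 ± 0.33) and Vpreb3 (-0.03 ± 0.14) the brightest. For T and NK cell genes it was 701 and 1013 against 524 and 373, with Nkg7 (-2.08 ± 0.61) and Cd3e (-0.39 ± 0.15). For erythroid genes it was 829 and 682 against 645 and 658, with Tfrc (-0.03 ± 0.35) and Slc4a1 (-0.57 ± 0.52). Platelet genes gave 1106 and 1093 against 607 and 606, with Itgb3 (-0.91 ± 0.21) and Itga2b (-0.69 ± 0.19). Stromal and endothelial genes gave 2411 and 2656 against 1243 and 963, with Lpl (-2.73 ± 0.35), which macrophages also express, and Pecam1 (-0.30 ± 0.25). Eosinophil, basophil and mast cell genes gave 853 and 993 against 734 and 942, with Mcpt8 (0.96 ± 0.50) and Cpa3 (-2.12 ± 0.82). On both Hes1-null arrays 1 of 9 B cell genes was higher and 2 lower. These counts were 1 and 7 for 10 T and NK cell genes, and 0 and 2 for 8 erythroid genes. They were 0 and 5 for 6 platelet genes and 0 and 6 for 10 stromal and endothelial genes. For 9 eosinophil, basophil and mast cell genes they were 1 and 3, against 17.4% and 20.6% of all genes.

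Hes1 itself did not separate the genotypes. It lay at 5.59 and 5.79 in wild type and at 5.43 and 5.84 in Hes1-null marrow (difference -0.06 ± 0.18, adjusted p = 0.968 by limma). The sources do not say whether its probe set lies in the deleted part, so this level does not check the labels. The median intensity of an array (linear scale) was between 65.0 and 67.3. Across genes the arrays correlated at r = 0.995 within wild type and 0.982 within Hes1-null marrow, and genes are not independent replicates.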

How the data were processed

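Total RNA of the 4 leukemic marrow samples had been labelled and run on Affymetrix MoGene arrays, 1 per sample. The deposited intensity values are RMA summaries, and the submitters' processing notes name Affymetrix Expression Console with no version. They are on a linear scale, so log2 was taken with nothing added, and the scaling between arrays that the authors deposited was kept. The table was used whole, with 0 sample columns left out. Of 35556 probe sets, 21789 had 1 gene symbol in the platform annotation, 1621 had several and 12146 were unnamed. Entrez identifiers matched 21698 of the named ones to RefSeq, which changed 0 symbols. The brightest probe set stood for the 999 genes with more than 1.

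All 19938 genes, dim ones included, were fitted with limma 3.58.1 in R 4.3.3 (lmFit, then eBayes with a trend on intensity), two-sided and with no term besides genotype, and adjusted by Benjamini-Hochberg at 0.05. Residual degrees of freedom were 2 and prior ones 3.41. The scripts were tested on simulated data. The number of arrays limits the precision. Lists are described by counts and medians only. Genes named are all members, up to 4 per other pathway or stress list by smallest unadjusted p, the 2 brightest and any called genes of each marker list, and Hes1. Genes named outside this rule are marked where they appear. Members and lists were chosen with earlier results of these data known. There were 14 alternatives, including the replicate number as a block, other scalings, filters and moderation, and each array left out.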

Additional observations from a re-analysis of the deposited data

How the results depend on the processing

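By limma, 0 members passed the adjusted threshold in the reported fit and under all 10 alternatives that kept the 4 arrays. At an unadjusted p of 0.05 there were 3 members in the reported fit and between 2 (filter at the median level) and 6 (array weights) under those alternatives, with 5 under the replicate block, and no member tested changed sign under them (the filters on level at the 25th percentile and the median kept 30 and 27 members). With 1 array left out the count ran from 0 to 4, the 4 being Traf6, Ticam2, Gsdmd and Tlr2 without Hes1-null replicate 1. The replicate numbers are shared between genotypes, and the series' design text speaks of pairs of the genotypes without saying which samples pair or what they share. Deviations of same-numbered arrays correlated at r = 0.05 across genes. With the replicate number as a block, 0 members were called, 89 of all genes passed in place of 29, and Irak3 had an adjusted p of 0.0628. The median difference ran from -0.16 to 0.05 over all members, from -0.17 to -0.05 over the receptors and from 0.08 to 0.14 over the adaptors and kinases with 1 array left out. Over the same fits, 12 members changed sign: Cd14 ran from -0.16 to 0.95, Irak2 from -0.50 to 0.14, Nlrc4 from -0.057 to 0.12, Nlrp3 from -0.45 to 0.88, Ticam1 from -0.019 to 0.17, Tlr1 from -0.43 to 0.28, Tlr13 from -0.16 to 0.091, Tlr2 from -0.093 to 0.79, Tlr3 from -0.16 to 0.11, Tlr6 from -0.20 to 0.20, Tlr7 from -0.26 to 0.051 and Tlr8 from -1.01 to 0.47. The cause was not tested. Without detection calls, no level can be told from background.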
